A study of Mus musculus with 8 samples.

Results

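The 10 genes described here encode the interleukin 7 (IL-7) receptor and the signalling route behind it: the receptor chains Il7r, Il2rg and Il2ra, the kinases Jak1 and Jak3, the transcription factors Stat5a and Stat5b, and the serine/threonine kinases Pim1, Pim2 and Pim3. They were taken by the gene name that the array annotation gives to each non-control probe, which found 12 probes, and they are 10 of the 21320 genes tested. The cells were wk3, a pre-B line from the mouse with the genotype SLP-65-/- (no SLP-65, an adaptor of pre-B cell receptor signalling), so every group shared that deletion. Retroviral vectors carried either a scrambled sponge, as control, or a miR-15 sponge, a transcript made to bind the miR-15 family of microRNAs, and transduced cells were selected with puromycin. Each line was grown in excess IL-7 or kept for 36 h without it, a step used to start pre-B cell differentiation. This gave 4 groups of 2 arrays: scrambled with IL-7, sponge with IL-7, scrambled without IL-7 and sponge without IL-7. Per the study's design the 2 replicates were separate experiments with independently made clones. The main fit did not pair arrays. Same-numbered arrays were treated as pairs on that description only in an alternative fit and in the per-replicate differences. Nothing else in the labels ties equal numbers across groups. All groups descend from 1 cell line in culture.

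IL-7 binds a receptor made of the IL-7 receptor alpha chain (Il7r) and the common gamma chain (Il2rg), which bring the tyrosine kinases JAK1 and JAK3 together. The kinases phosphorylate STAT5A and STAT5B, which then enter the nucleus and activate genes for survival and proliferation, among them genes of the PIM kinases and of feedback inhibitors. In early B cell precursors this signal sustains growth, and its loss allows light chain gene rearrangement. Il2ra encodes CD25, the alpha chain of the interleukin 2 receptor, which shares the gamma chain with the IL-7 receptor and is used as a surface marker of the pre-B stage in the mouse.

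The sponge was designed against the 6 microRNAs whose mature sequences follow (RefSeq, GRCm38.p6), shown as its intended targets. Capitals mark the seed, bases 2 to 8, which was AGCAGCA in all of them, and the table's miR-195a and miR-497a stand for miR-195 and miR-497 of the labels.
mmu-miR-15a-5p: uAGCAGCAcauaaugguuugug
mmu-miR-15b-5p: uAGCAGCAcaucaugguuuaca
mmu-miR-16-5p: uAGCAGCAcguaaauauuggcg
mmu-miR-195a-5p: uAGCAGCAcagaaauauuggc
mmu-miR-322-5p: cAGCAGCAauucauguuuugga
mmu-miR-497a-5p: cAGCAGCAcacugugguuugua
The base before the seed is u or c. The microRNAs come from genes on chromosomes 14, 3, 11 and X, miR-16 from a copy on both chromosome 14 and chromosome 3. Levels of these microRNAs were not measured on the arrays used here, and whether transcripts of the 10 genes hold matches to the seed was not tested.

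Levels are given as log2 of the array's processed signal minus the array's own 75th percentile, so 0 is the 75th percentile of all non-control spots. They can be compared between arrays for 1 probe but not between genes. On the 8 arrays 50.6% to 56.6% of 59305 spots lay well above background, and 0 spots were saturated. All 12 probes of the 10 genes were well above background on all 8 arrays, so none of these genes passed the filter through 1 group alone. As a check of the labelled cell type, 12 of 12 pre-B markers were well above background in every group. Of 9 T cell markers 5 or 6 were so on both arrays of a group. Cd3g was so on 0 arrays, Cd8a on 1, Cd3d on 2 and Foxp3 on 5, and Cd3e, Cd247, Cd4, Cd28 and Lck on 8. Of 7 myeloid markers 4 or 5 and of 4 NK cell markers 2 were well above background on both arrays of a group. All arrays were on 1 slide. The with-IL-7 and without-IL-7 arrays filled different lines of it, and the 4 positions within a line followed construct and replicate, so slide position cannot be told apart from IL-7 or construct. The precision of all values is limited by there being 2 arrays per group.

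Il2ra was the member whose level moved most: it was 5.17-fold higher after withdrawal of IL-7 in scrambled cells, and lower with the sponge than with the scrambled control both with and without IL-7. The common gamma chain Il2rg rose more modestly, and Il7r itself stayed in a narrow band under the main scaling. In cultures measured in bulk, fewer cells with a transcript and less transcript per cell cannot be told apart. For Il2ra (probe at mm9 chr2:11614744-11614803, plus strand), the log2 level was 2.68 and 2.69 in scrambled cells with IL-7, 1.72 and 1.84 in sponge cells with IL-7, 4.96 and 5.16 in scrambled cells without IL-7, and 3.94 and 3.85 in sponge cells without it. The groups did not overlap in any of the 4 pairwise comparisons, and their order was scrambled without, sponge without, scrambled with, sponge with IL-7. Withdrawal raised Il2ra by 2.37 ± 0.10 (SE) on the log2 scale in scrambled cells, 5.17-fold, with an adjusted p of 0.000234 by limma with Benjamini-Hochberg adjustment over all genes. It raised Il2ra by 2.12 ± 0.10 in sponge cells, 4.33-fold (adjusted p = 0.00159). Both replicates moved alike, by 2.28 and 2.46 in scrambled cells and by 2.22 and 2.01 in sponge cells. The difference between these effects was -0.25 (95% interval -0.58 to 0.08, adjusted p = 0.322), so the withdrawal effect was not shown to differ between constructs.

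The sponge cells had less Il2ra signal at both IL-7 conditions. Without IL-7 the difference from scrambled cells was -1.16 ± 0.10, 2.24-fold lower (adjusted p = 0.00129), and it passed in 16 of 16 alternative settings. With IL-7 it was -0.91 ± 0.10, 1.88-fold lower (adjusted p = 0.0209, and 0.0462 with the replicate number as a block), and it passed in 10 of 16. Here leaving out scrambled replicate 1 with IL-7 gave an adjusted p of 0.0646, sponge replicate 1 with IL-7 0.102, sponge replicate 2 with IL-7 0.0897, and either sponge replicate without IL-7 0.0644, while the difference itself stayed between -0.97 and -0.85 over all 16. The summed linear level of the 12 pre-B markers was 1680 to 1710 in scrambled and 1500 to 1680 in sponge cells with IL-7. Without it the sums were 1750 to 1780 and 1530 to 1550. With IL-7, 0 of these markers were higher and 2 lower with the sponge, against 0.314% and 0.816% of all genes. Without IL-7, 2 were higher and 6 lower, against 16.8% and 15.3%. For the markers of T cells, another cell type that uses CD25, the sum was 17.2 to 17.8 in scrambled and 13.8 to 14.2 in sponge cells with IL-7. Without it, the sum was 19.7 to 20.0 and 13.9 to 14.3. Lck, the marker with the brightest probe, makes up most of that sum, and single markers were mixed. Of the 6 tested, sponge minus scrambled with IL-7 was 0.23 for Cd28, 0.12 for Cd247, 0.10 for Cd4, -0.35 for Cd3e, -0.45 for Lck and -1.32 for Foxp3, and 0 passed by limma (adjusted p 0.0558 for Lck and 0.0734 for Foxp3). Foxp3 was dim, at -5.82 and -5.39 on the sponge arrays with IL-7. The dimmest probes well above background on those arrays lay at -5.23 and -5.33. Foxp3 was well above background on 5 of the 8 arrays. Without IL-7, Lck alone passed, at -0.69 (adjusted p = 0.00162), Cd3e gave 0.08, and the other 4 lay between -0.33 and -0.05. The part of T cell transcripts in the Il2ra result was not tested. Of the T cell receptor complex genes, Cd3g was well above background on 0 arrays, Cd3d on 2, and Cd3e and Cd247 on 8.

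Il2rg encodes the gamma chain shared by several cytokine receptors (probe at mm9 chrX:98460130-98460189, minus strand). Its log2 level was 2.03 and 2.23 in scrambled cells with IL-7, 1.83 and 2.15 in sponge cells with IL-7, 2.55 and 2.73 in scrambled cells without, and 2.25 and 2.42 in sponge cells without. Both withdrawn groups lay above their IL-7 groups without overlap. The rise was 0.51 ± 0.15 in scrambled cells, 1.42-fold (adjusted p = 0.0339). It lost the call when scrambled replicate 1 with IL-7 was left out (0.41, adjusted p = 0.125), without scrambled replicate 1 (0.60, 0.0672) or 2 (0.42, 0.159) of the withdrawn cells, and without either withdrawn sponge array (0.51, 0.0517). In sponge cells the difference was 0.35 (adjusted p = 0.153, and 0.0364 with the replicate block), and sponge minus scrambled without IL-7 gave -0.30 (adjusted p = 0.18, and 0.0382 with the block). With IL-7 sponge and scrambled cells overlapped.

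Il7r, the chain that binds IL-7 itself (probe at mm9 chr15:9435976-9436035, minus strand), had the narrowest span of group means among the 10 genes under the main scaling, 0.19 against 3.28 for Il2ra. Its log2 level was 5.74 and 5.59 in scrambled cells with IL-7, 5.85 and 5.78 in sponge cells with IL-7, 5.68 and 5.75 in scrambled cells without, and 5.84 and 5.87 in sponge cells without. Scrambled arrays with and without IL-7 overlapped, as did sponge arrays. Both sponge groups lay just above their scrambled groups, by 0.15 with IL-7 (adjusted p = 0.351) and 0.14 without (adjusted p = 0.258). The withdrawal difference was 0.06 in scrambled cells (95% interval -0.14 to 0.26, adjusted p = 0.593) and 0.04 in sponge cells (-0.16 to 0.24, adjusted p = 0.754). This depends on the scaling between arrays. Under quantile normalization Il7r rose by 0.45 (adjusted p = 0.00739) and 0.37 (adjusted p = 0.0336), and in the value table that the authors deposited by 0.47 (0.00695) and 0.37 (0.0364). Its processed signal was 15800 to 24000 on the 8 arrays.

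**Figure D1:**
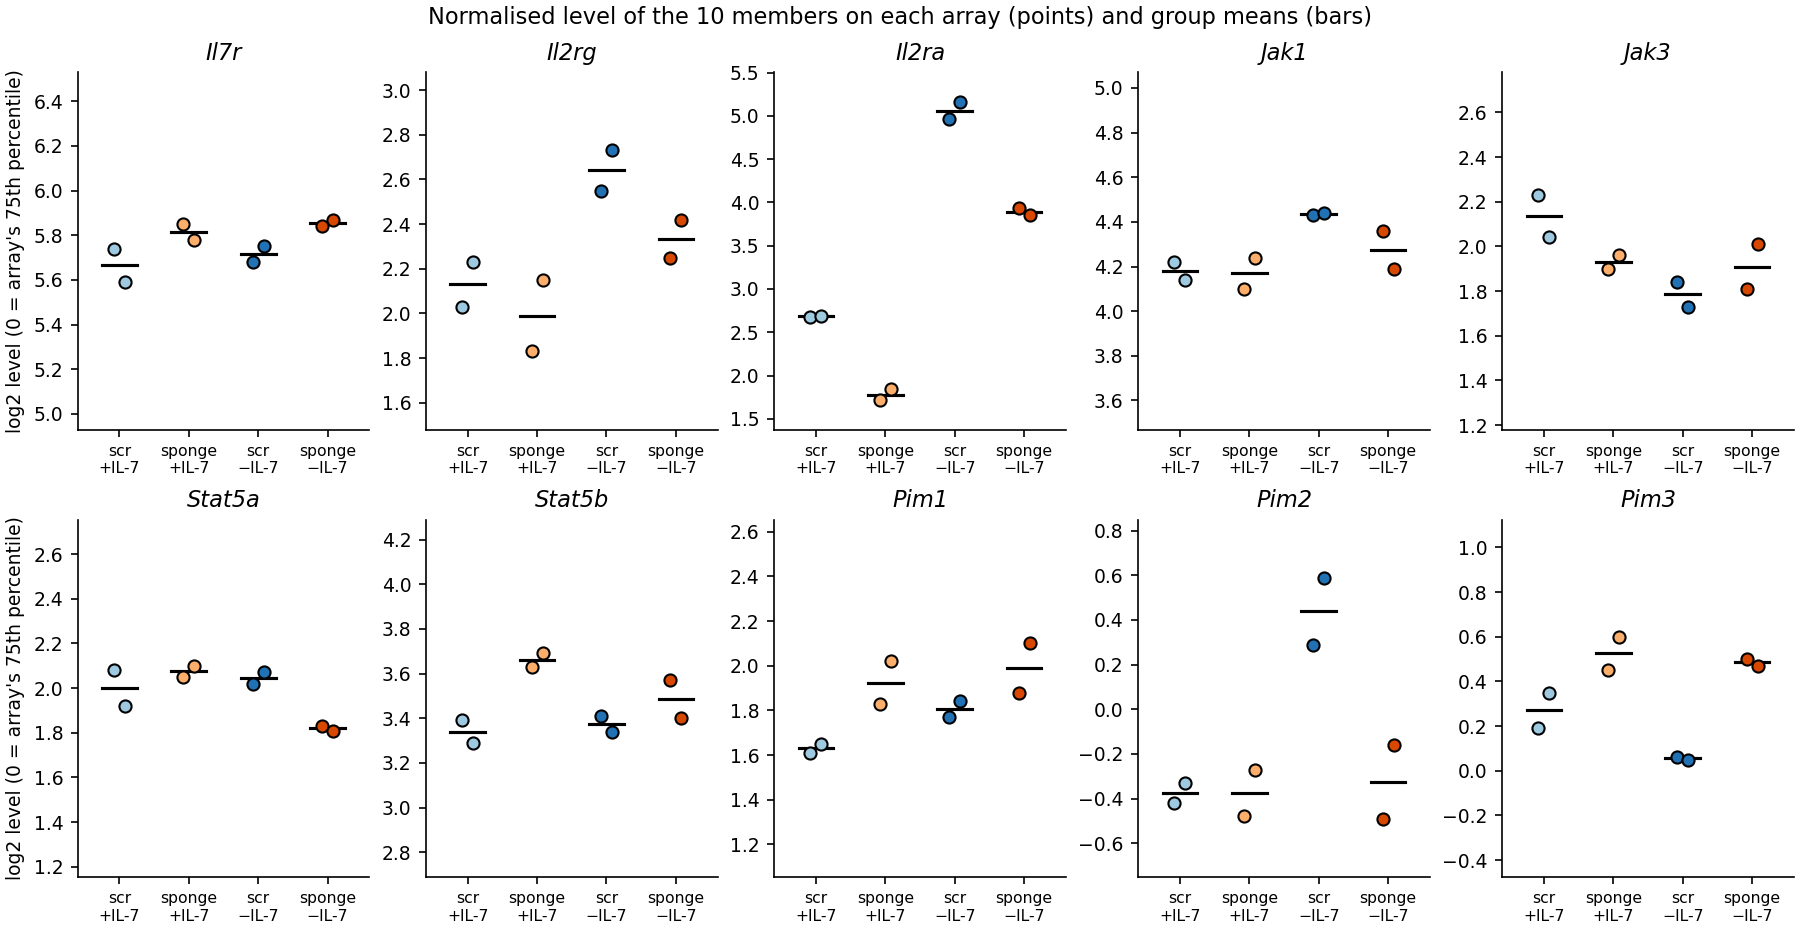
Log2 level of each of the 10 genes on the 8 arrays, relative to the array's 75th percentile; points are arrays (2 per group), bars the group means, scr the scrambled control, and each panel has its own y axis. Il2ra ran from 1.72 to 5.16 with no overlap between the 4 groups, Pim2 was high only on the scrambled arrays without IL-7, at 0.29 and 0.59, and Il7r stayed between 5.59 and 5.87.

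Of the kinases and STAT5 genes behind the receptor, 1 of 4 passed in any comparison of the main fit. Jak3 fell after withdrawal in scrambled cells, by a small amount that did not hold under several alternatives. For that comparison 20.7% of all genes were higher and 27.4% lower. Jak1, which pairs with Il7r (probe at mm9 chr4:100825094-100825153, minus strand), gave log2 levels of 4.22 and 4.14 in scrambled cells with IL-7, 4.10 and 4.24 in sponge cells with IL-7, 4.43 and 4.44 in scrambled cells without, and 4.36 and 4.19 in sponge cells without. The withdrawn scrambled arrays lay above the others, with a difference of 0.25 (95% interval 0.03 to 0.48, adjusted p = 0.0663). Under quantile normalization Jak1 rose by 0.50 (adjusted p = 0.00363), and the value table gave 0.50 (0.00326). Under quantile normalization it was also lower in sponge than scrambled cells without IL-7 (-0.30, adjusted p = 0.0288), where the main scaling gave -0.15 (adjusted p = 0.259).

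Jak3 pairs with the gamma chain and had 2 probes. The brighter one (mm9 chr8:74210801-74210860, plus strand) gave 2.23 and 2.04 in scrambled cells with IL-7, 1.90 and 1.96 in sponge cells with IL-7, 1.84 and 1.73 in scrambled cells without, and 1.81 and 2.01 in sponge cells without. The scrambled groups did not overlap, and Jak3 fell by 0.35 ± 0.11 after withdrawal, 1.28-fold lower (adjusted p = 0.0373, and 0.0578 with the replicate block). Sponge arrays overlapped, at -0.02 (adjusted p = 0.92). The fall in scrambled cells was not called under quantile normalization (-0.26, adjusted p = 0.111) or in the deposited value table (-0.25, 0.118). It also lost its call with the mean of the kept probes (-0.25, 0.0916) and without the filter on dim probes (-0.35, 0.0864). The dimmer probe (chr8:74214085-74214144) gave -0.15 ± 0.11 for scrambled cells (adjusted p over all probes 0.312), and the deposited annotation lists a transcript of the neighbouring gene Insl3 for it as well. The call on the brighter probe was lost when scrambled replicate 1 with IL-7 (0.137), either sponge array with IL-7 (0.0604), scrambled replicate 1 (0.0839) or 2 (0.166) without IL-7 was left out, these being adjusted p-values, and it held in 6 of 16 alternatives.

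Stat5a and Stat5b encode the factors that JAK1 and JAK3 activate, and neither passed in any comparison of the main fit. Stat5a (probe at mm9 chr11:100746373-100746432, plus strand) gave 2.08 and 1.92 in scrambled cells with IL-7, 2.05 and 2.10 in sponge cells with IL-7, 2.02 and 2.07 in scrambled cells without, and 1.83 and 1.81 in sponge cells without. The withdrawn sponge arrays lay below all others, with a withdrawal difference in sponge cells of -0.26 (95% interval -0.46 to -0.06, adjusted p = 0.0704) against 0.04 in scrambled cells. The difference between these was -0.30 (unadjusted p = 0.0386 by limma, adjusted p = 0.19). With normexp background correction the withdrawal fall of Stat5a in sponge cells passed (-0.27, adjusted p = 0.043). Without IL-7 the sponge minus scrambled value was -0.23 (adjusted p = 0.0842), which passed under quantile normalization (-0.29, adjusted p = 0.0468). For Stat5b the brighter probe (chr11:100642045-100642104, minus strand) gave 3.39 and 3.29 in scrambled cells with IL-7, 3.63 and 3.69 in sponge cells with IL-7, 3.41 and 3.34 in scrambled cells without, and 3.57 and 3.40 in sponge cells without. Sponge cells with IL-7 were above scrambled cells with IL-7 on both arrays, by 0.32 (95% interval 0.10 to 0.54, adjusted p = 0.148), and the dimmer probe gave 0.27 (adjusted p over all probes 0.184). Both Stat5b probes thus showed the same sign without passing.

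The 3 PIM kinases, serine/threonine kinases that promote survival and are known to act without an upstream activating phosphorylation, differed from one another. Pim2 was raised by withdrawal in scrambled cells and was lower in sponge than in scrambled cells without IL-7, Pim3 was higher in sponge cells without IL-7, and Pim1 passed in no comparison. For Pim2 (probe at mm9 chrX:7459678-7459737, plus strand), the log2 level was -0.42 and -0.33 in scrambled cells with IL-7, -0.48 and -0.27 in sponge cells with IL-7, 0.29 and 0.59 in scrambled cells without, and -0.49 and -0.16 in sponge cells without. The 2 withdrawn scrambled arrays thus stood above the other 6, which overlapped one another. Pim2 rose by 0.82 ± 0.16 in scrambled cells, 1.76-fold (adjusted p = 0.00776), by 0.71 and 0.92 in the replicates, and passed in 16 of 16 alternatives. In sponge cells the withdrawal difference was 0.05 (95% interval -0.34 to 0.44, adjusted p = 0.854). Without IL-7, sponge minus scrambled was -0.77 ± 0.16, 1.70-fold lower (adjusted p = 0.0153), and with IL-7 it was 0.00 (-0.39 to 0.39). That call was lost without scrambled replicate 2 (-0.62, adjusted p = 0.0865) or sponge replicate 1 (-0.60, 0.0738) of the withdrawn cells. The difference between the withdrawal effects was -0.77 (95% interval -1.32 to -0.22, unadjusted p = 0.0145 by limma), and it did not pass (adjusted p = 0.113, and 0.0532 with the block).

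Pim3 (probe at mm9 chr15:88695626-88695685, plus strand) gave 0.19 and 0.35 in scrambled cells with IL-7, 0.45 and 0.60 in sponge cells with IL-7, 0.06 and 0.05 in scrambled cells without, and 0.50 and 0.47 in sponge cells without. Withdrawal in scrambled cells gave -0.21 (adjusted p = 0.108 by limma), and -0.24 with normexp background correction, which passed (0.0381). Sponge arrays lay above scrambled arrays in both conditions. The difference passed without IL-7, at 0.43 ± 0.09, 1.34-fold higher (adjusted p = 0.0175), and with IL-7 it was 0.25 (95% interval 0.03 to 0.48, adjusted p = 0.218). The call without IL-7 was lost without scrambled replicate 1 (adjusted p = 0.0798) or 2 (0.0913) and without sponge replicate 1 (0.0828) or 2 (0.0705) of the withdrawn cells, with values of 0.41 to 0.44. Pim1 (probe at mm9 chr17:29630740-29630799, plus strand) gave 1.61 and 1.65 in scrambled cells with IL-7, 1.83 and 2.02 in sponge cells with IL-7, 1.77 and 1.84 in scrambled cells without, and 1.88 and 2.10 in sponge cells without. Its sponge arrays also lay above its scrambled arrays in both conditions, by 0.29 with IL-7 (adjusted p = 0.229) and 0.19 without (adjusted p = 0.244).

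**Figure D2:**
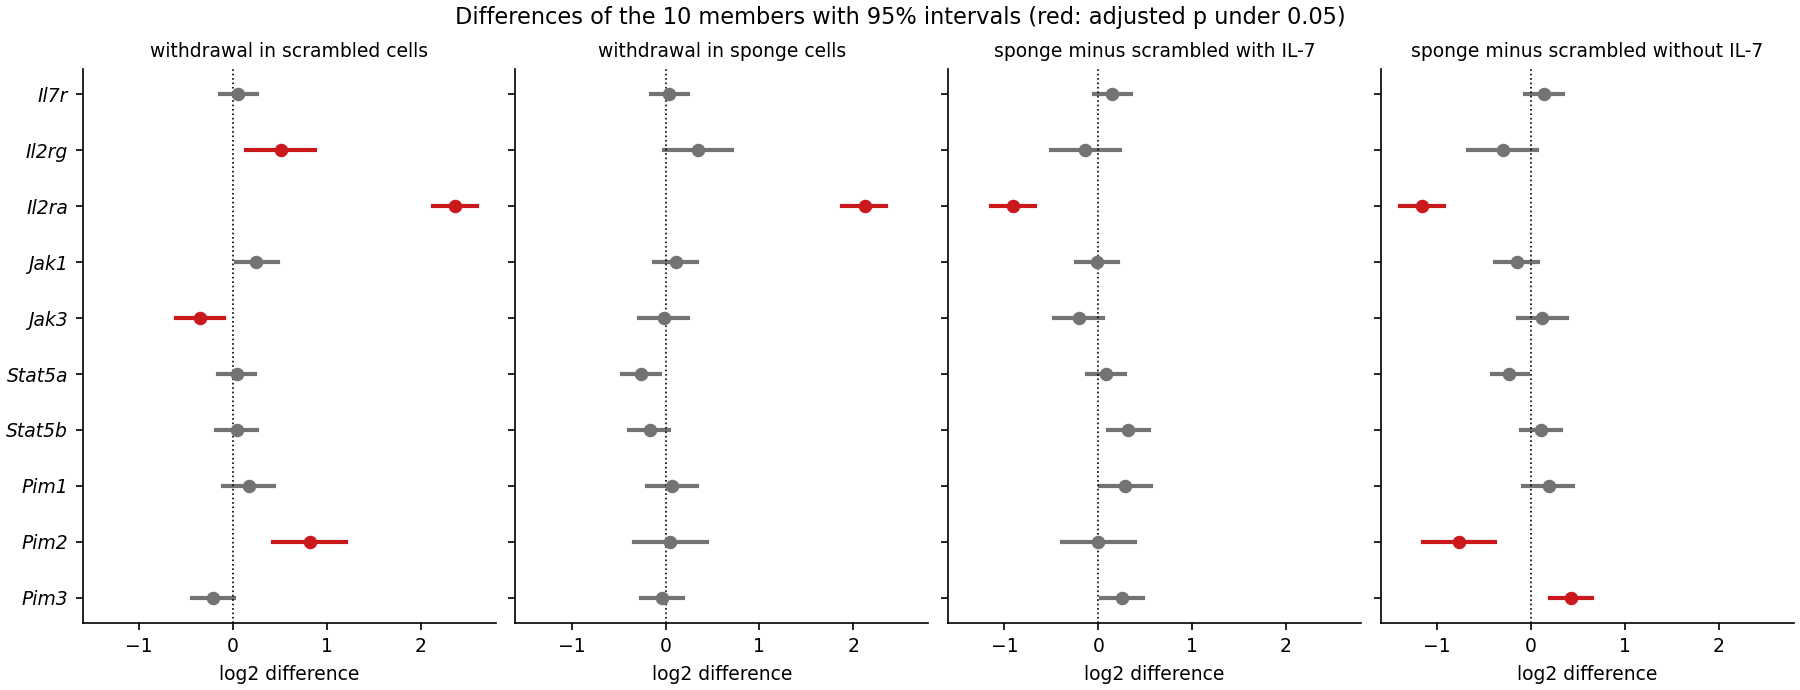
Log2 difference of each of the 10 genes (points) with its 95% interval (lines) in 4 comparisons, from the fit over all genes; red marks an adjusted p under 0.05. Il2ra was the only one to pass in all 4, at 2.37, 2.12, -0.91 and -1.16, and the intervals of Il7r included 0 in all 4.

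Set against all genes, the counts were as follows. For withdrawal in scrambled cells 3 of 10 members were higher and 1 lower, where 20.7% of the 21320 genes were higher and 27.4% lower, and the members' median was 0.11 against -0.02 over all genes. For withdrawal in sponge cells 1 was higher and 0 lower, against 7.92% and 15.2%, with medians of 0.05 and -0.06. For sponge minus scrambled with IL-7 the count was 0 higher and 1 lower, against 0.314% and 0.816%, with medians of 0.04 and 0.01. Without IL-7, 1 was higher and 2 lower, against 16.8% and 15.3%, with medians of -0.02 and -0.05. For the difference between the withdrawal effects 0 members passed by limma, against 4.32% higher and 0.952% lower over all genes, with medians of -0.15 and -0.04. At an unadjusted p under 0.05 there were 2 of 10 members (Stat5a and Pim2), where 23.2% of all genes lay under it. The members' shares in the withdrawal comparisons and in the comparison without IL-7 were near those of all genes. These comparisons share groups, so a gene's values in them are not independent.

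The split of calls over all genes moved with the scaling between arrays and with the background correction. In scrambled cells 43.1% of the genes called after withdrawal were higher by the main scaling and 50.4% under quantile normalization (5151 higher, 5060 lower), and in sponge cells 34.2% and 52.1%, while the median of all genes was -0.02 and 0.02 in scrambled cells and -0.06 and -0.01 in sponge cells. For sponge minus scrambled with IL-7 the higher share was 27.8% of calls, and 40.5% under normexp background correction (157 higher, 231 lower).

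**Figure D3:**
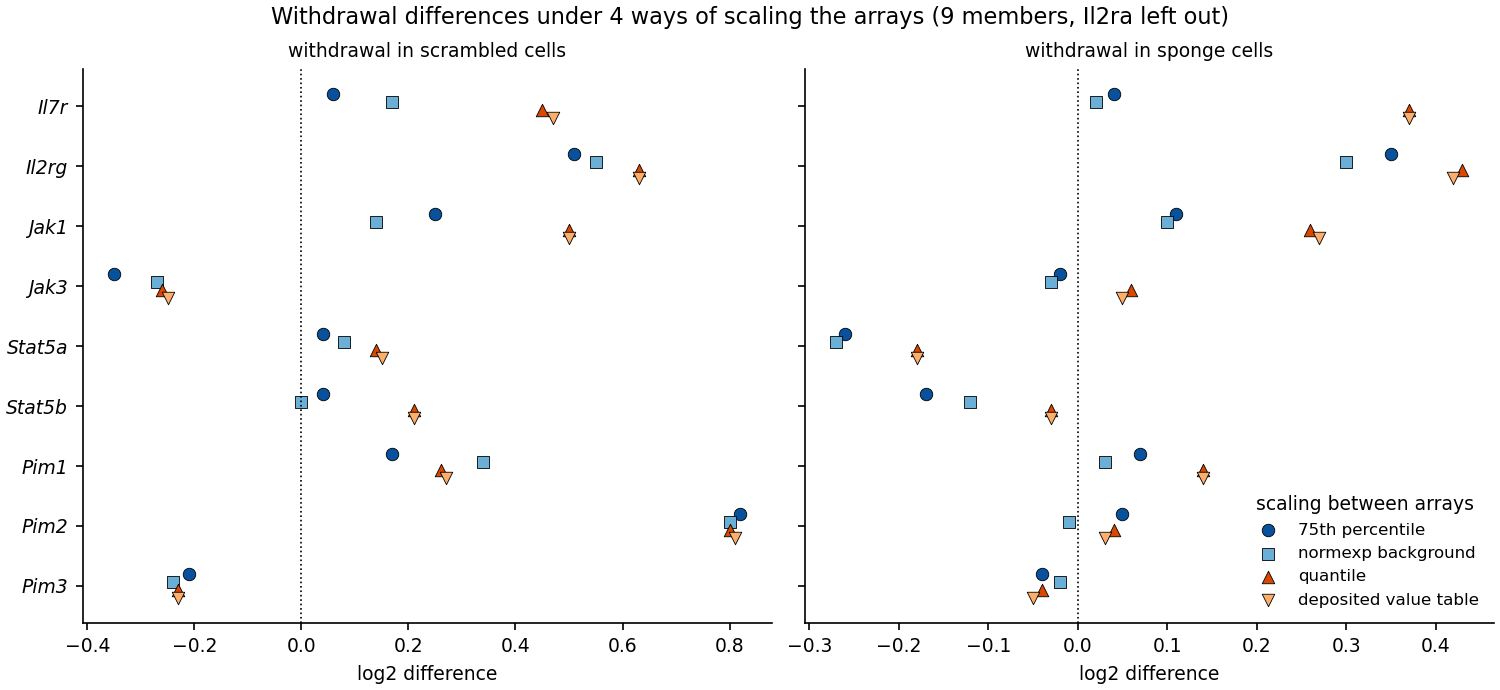
Withdrawal difference of 9 of the 10 genes, Il2ra left out for its size, in scrambled (left) and sponge cells (right) under 4 ways of scaling the arrays; the 2 panels have their own x axes. Il7r moved in scrambled cells from 0.06 to 0.45 under quantile normalization, with 0.47 from the value table, while Pim2 stayed between 0.80 and 0.82.

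Other genes of the route were read from 7 lists of known members. Of all genes, 20.7% rose and 27.4% fell after withdrawal in scrambled cells, and 7.92% and 15.2% in sponge cells. For sponge minus scrambled without IL-7, 16.8% were higher and 15.3% lower. Of the receptors that share a chain with these, 5 of 6 were tested, Il2rb not being well above background on both arrays of any group. After withdrawal in scrambled cells 2 rose, Il21r by 0.73 ± 0.15 (15 of 16 alternatives) and Il4ra by 0.47 ± 0.14 (7 of 15, and 0.04 with normexp background correction), and 0 fell (list median 0.06, all genes -0.02). In sponge cells Il21r alone rose, by 0.56 (adjusted p = 0.0469, 0.0568 with the block, 4 of 16 alternatives). Without IL-7 Il4ra was lower with the sponge, at -0.50 (adjusted p = 0.039, 4 of 15 alternatives, and -0.25 with normexp). Il4ra was dim, at -4.85 to -3.93 and well above background on 7 arrays. The dimmest probes well above background lay at -5.60 to -5.06. Its 2 kept probes gave 0.47 to 1.05 for withdrawal in scrambled cells and -0.34 to 0.27 in sponge cells. Sponge minus scrambled, they gave -0.29 to 0.76 with IL-7 and -0.62 to -0.50 without. The 7 ligands (Il7, Tslp, Il2, Il4, Il9, Il15 and Il21) failed the filter on dim probes, 0 of them reaching it in any group, and were not tested.

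Of 6 other JAK and STAT genes, 2 rose and 0 fell in scrambled cells (median -0.02, as over all genes). There 20.7% of all genes rose and 27.4% fell. Stat3, which carries signals of the interleukin 6 family, rose by 0.40 ± 0.08 (adjusted p = 0.00849, 15 of 16 alternatives), and Stat6, which carries those of interleukin 4, by 0.40 ± 0.13 (adjusted p = 0.0495, 8 of 16). In sponge cells 0 rose and 1 fell: Stat4, which carries those of interleukin 12, fell by 0.66 ± 0.10 (adjusted p = 0.00898, 14 of 16). Without IL-7, 3 of the 6 were lower with the sponge and 0 higher (median -0.29 against -0.05 over all genes), Stat3 most, at -0.72 ± 0.08 (adjusted p = 0.00197).

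Of 18 inhibitors of JAK-STAT signalling, 6 rose and 4 fell in scrambled cells, and 3 rose and 1 fell in sponge cells. Of all genes, 20.7% rose and 27.4% fell in scrambled cells, and 7.92% and 15.2% in sponge cells. Socs1, which binds JAK kinases, was the largest riser, with log2 levels of 0.04 and 0.28 in scrambled cells with IL-7, -0.22 and -0.12 in sponge cells with IL-7, 2.53 and 2.80 in scrambled cells without and 1.40 and 1.28 in sponge cells without. It rose by 2.50 ± 0.13 in scrambled cells (adjusted p = 0.000234) and by 1.51 ± 0.13 in sponge cells (adjusted p = 0.00281). Cish, itself a known STAT5 target, rose by 1.35 ± 0.10 and by 1.06 ± 0.10, and with normexp by 0.78 and 0.44, still called. Among those that fell in scrambled cells were the STAT inhibitor Pias3, by 0.75 ± 0.11, and the phosphatase Ptpn6, by 0.72 ± 0.08 (-0.41 under quantile normalization). Ptpn6 also fell in sponge cells, by 0.37 (adjusted p = 0.0261, and -0.13 with adjusted p = 0.347 under quantile normalization). In the sponge with IL-7 comparison Cish was the only gene of all 7 lists to pass, at -1.04 ± 0.10 (adjusted p = 0.0155, 11 of 16 alternatives, and -0.59 with normexp). For that comparison few of all genes passed, 0.314% as higher and 0.816% as lower. Without IL-7, 3 inhibitors were higher and 6 lower with the sponge, Cish at -1.33 and Socs1 at -1.32 lowest and Pias2 highest at 0.58. There 16.8% of all genes were higher and 15.3% lower.

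The 11 genes known to be activated through STAT5 did not move one way. In scrambled cells 6 rose and 4 fell, with a median of 0.24, where 20.7% of all genes rose and 27.4% fell. Socs1 and Cish, described above, rose most, and Myc, the growth regulator, fell by 2.67 ± 0.09 (-1.70 with normexp) and the survival gene Bcl2 by 1.84 ± 0.09. Myc gave log2 levels of -0.38 and -0.29 with IL-7 and -2.96 and -3.07 without in scrambled cells, and -0.46 and -0.35 with and -2.02 and -1.93 without in sponge cells. In sponge cells 3 rose and 3 fell: Myc fell by 1.57 ± 0.09 and the cyclin gene Ccnd2 by 1.29 ± 0.13. Without IL-7, 3 were higher with the sponge, Bcl2 most at 1.47 ± 0.09, and 7 lower, Cish and Socs1 among them. In that comparison 16.8% of all genes were higher and 15.3% lower. Socs2 rose in scrambled cells by 0.24 (adjusted p = 0.0491, 0.0676 with the block, and a value of 0.42 under quantile normalization), with its 4 kept probes between -0.02 and 0.78.

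**Figure D4:**
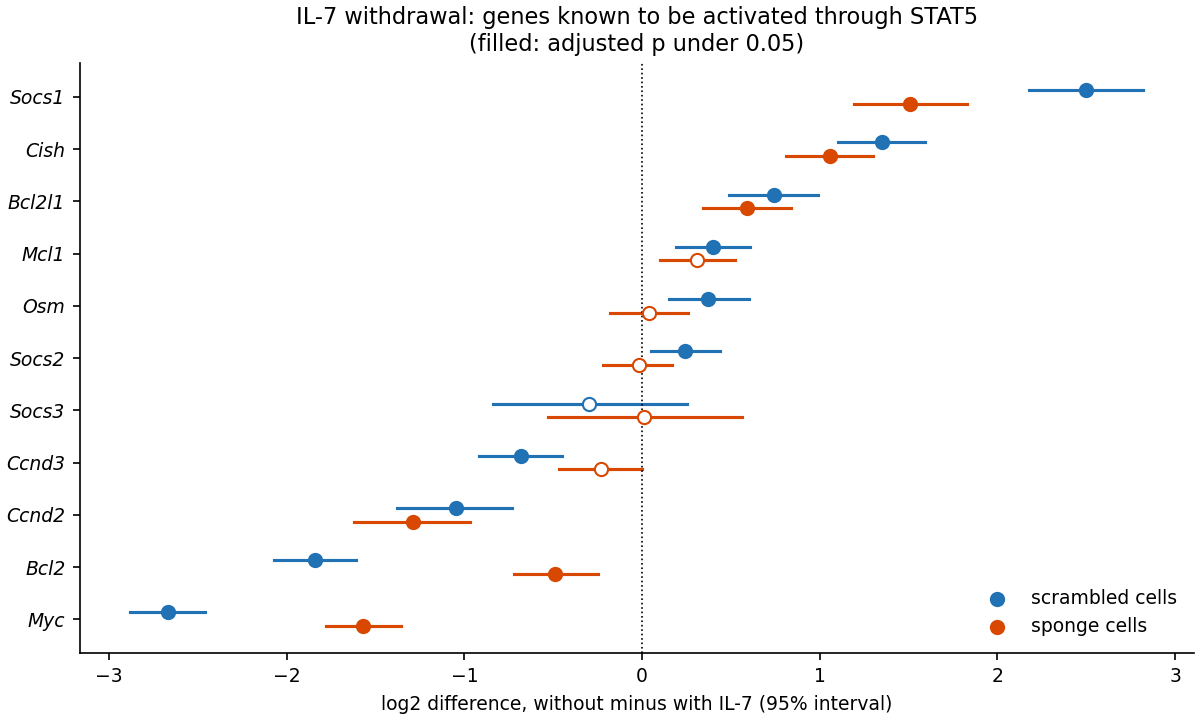
Log2 difference after IL-7 withdrawal (points, with 95% intervals) of 11 genes known to be activated through STAT5, in scrambled (blue) and sponge cells (orange); filled points have an adjusted p under 0.05. Socs1 (2.50 and 1.51) lay at one end and Myc (-2.67 and -1.57) at the other.

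Of 8 genes whose proteins PIM kinases phosphorylate, 2 rose and 4 fell in scrambled cells (median -0.33). Cdkn1a, which encodes the cell cycle inhibitor p21, fell by 1.83 ± 0.10 at its brightest probe, its 3 kept probes giving -1.83 to -0.26 and their mean -1.11, and the phosphatase gene Cdc25a fell by 1.34 ± 0.09. Akt1s1 rose by 0.51 (7 of 16 alternatives, and 0.28 with normexp) and the inhibitor gene Cdkn1b by 0.39 (0.68 under quantile normalization). In sponge cells 0 rose and 3 fell, Cdc25a by 0.54 ± 0.09 and Eif4ebp1 by 0.44 ± 0.08 (10 of 16, and -0.27 under quantile normalization). Without IL-7, 3 were higher with the sponge, among them Cdkn1a at 1.83 (its 3 kept probes giving 0.37 to 1.83 and their mean 1.16) and Cdc25a at 1.32, and 2 lower, Akt1s1 most at -0.77. Of 9 factors known to act on Il7r, 3 rose and 2 fell in scrambled cells: Foxo1, which activates Il7r, rose by 0.81 ± 0.12, Foxp1, which can repress it, by 0.69 ± 0.09 (1.09 under quantile normalization, its 5 kept probes giving 0.58 to 1.53), Gfi1b fell by 0.94 ± 0.09 and Gabpa by 0.38 ± 0.11 (8 of 16). In sponge cells 3 rose and 0 fell, Foxo1 by 0.71 ± 0.12 (13 of 16) and Ebf1 by 0.46 ± 0.09 (11 of 16, and 0.73 under quantile normalization). Without IL-7, 1 was higher with the sponge, Gfi1b at 0.88 ± 0.09, and 3 were lower, Foxo1 at -0.47 ± 0.12 (9 of 16) and Foxp1 at -0.44 among them. Beside the counts of these 2 lists, 20.7% of all genes rose and 27.4% fell in scrambled cells, and 7.92% and 15.2% in sponge cells. Without IL-7, 16.8% of all genes were higher with the sponge and 15.3% lower.

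The profile of Il2ra, the member with the widest span, was matched most closely over the 8 arrays by Gbp11, Fcrla, Sly, Klf2 and Gbp4. The measure was the root-mean-square difference of the profiles after each was centred on its mean, and it was 0.09 for Gbp11, 0.17 for Fcrla, 0.18 for Sly and Klf2, and 0.20 for Gbp4, on the log2 scale. Withdrawal values in scrambled cells were 2.49, 2.16, 2.69, 2.62 and 2.51 in that order, against 2.37 for Il2ra. These genes were chosen for that likeness, so their values are a description, and the 8 arrays fall into 4 groups. Sly, of a multicopy family whose transcripts a probe can share, was well above background on 4 arrays and the others on 8. Among the 10 members themselves, the closest to Il2ra was Pim2, at a distance of 0.98.

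**Figure D5:**
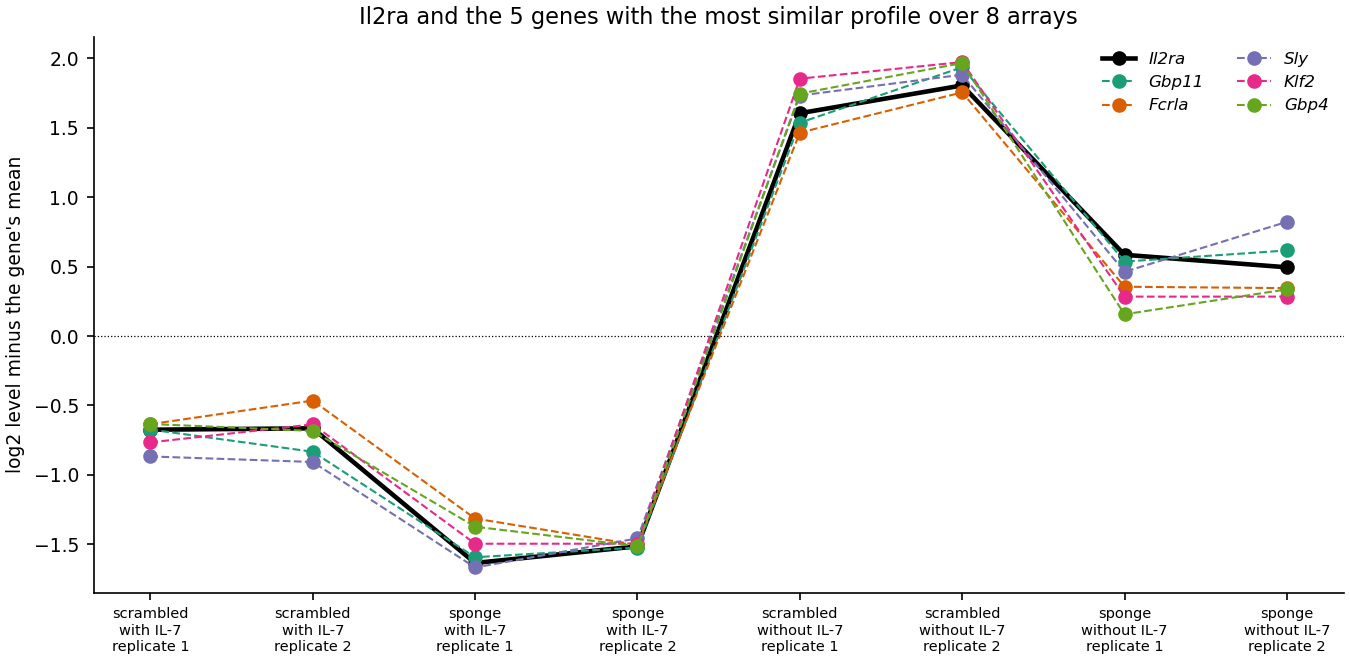
Log2 level minus the gene's mean over 8 arrays, for Il2ra (black line) and the 5 genes with the most similar profile (dashed); the arrays are in group order, 2 per group. All 6 were lowest on the sponge arrays with IL-7 and highest on the scrambled arrays without it.

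Promoters are shown for Il2ra and Il7r, the members with the widest and the narrowest span of group means under the main scaling, 250 bases before to 50 after the annotated start (RefSeq, GRCm38.p6), on the gene's strand. Capitals mark a match to the STAT motif TTCNNNGAA.
Il2ra promoter, chr2:11642542-11642841, plus strand: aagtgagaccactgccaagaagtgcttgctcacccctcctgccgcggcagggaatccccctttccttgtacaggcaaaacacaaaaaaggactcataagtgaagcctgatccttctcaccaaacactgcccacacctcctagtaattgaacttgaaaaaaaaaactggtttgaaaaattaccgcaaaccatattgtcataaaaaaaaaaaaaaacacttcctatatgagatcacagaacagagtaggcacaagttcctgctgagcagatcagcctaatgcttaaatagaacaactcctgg
Il7r promoter, chr15:9529827-9530126, minus strand: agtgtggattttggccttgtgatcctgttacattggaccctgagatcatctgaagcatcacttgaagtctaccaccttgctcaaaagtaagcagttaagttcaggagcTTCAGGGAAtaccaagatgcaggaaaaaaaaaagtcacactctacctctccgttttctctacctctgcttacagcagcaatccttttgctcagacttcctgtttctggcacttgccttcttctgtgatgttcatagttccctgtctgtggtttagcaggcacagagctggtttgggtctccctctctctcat
The Il7r window held 1 match, TTCAGGGAA, whose first base is at position -142 from the start, and the Il2ra window none. Of 32851 promoter windows 8.3% held this motif. On either strand the FOXO motif TGTTTAC was in 3.65% of windows and the ETS motif CCGGAAG in 8.86%. Among the members' windows, the FOXO motif matched in 1 of Pim1's, at position -70, and the ETS motif in that of Il2rg, at -17. The members' other windows held none of the 3 motifs, and no match overlapped another. No binding was measured here, and a match is a string of letters, not a site.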

How the data were processed

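The authors measured RNA from 8 wk3 cultures, each on its own Agilent array with Cy3 as the single dye. The deposited scanner tables hold a processed signal as intensity on a linear scale, background subtracted and detrended within the array per the file headers, from Agilent Feature Extraction (10.7.1.1 in the submitters' processing notes, 10.7.3.1 in the headers). The deposited value table is in linear intensity too, identically distributed across arrays; its software is not given in the sources used here.

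Control and flagged spots (128 to 277 per array) were removed. Per probe the mean of log2 signals was taken relative to the 75th percentile of its array, and probes were kept (30963 of 55681) where 1 or more groups had them well above background on each array. Probes were named through RefSeq, 27235 by accession, 3581 by symbol and 565 by synonym, and the brightest kept probe stood for a gene. Group means were fitted with limma 3.58.1 in R 4.3.3 (residual degrees of freedom 4, prior 1.812), two-sided, with Benjamini-Hochberg adjustment over 21320 genes, called under 0.05, in 5 contrasts. The fit was also run on simulated arrays with independent noise and a small share of genes changed. That run cannot speak to the scaling between arrays, which it did not vary. This main fit held no term for the replicate number. An alternative, the replicate block, treated same-numbered arrays as pairs because the study's design describes separate experiments. The design does not say that equal numbers share an experiment across groups. Correlations of the deviations of same-numbered arrays between groups were 0.0177 to 0.131. The 16 alternatives were 8 settings and 8 left-out arrays. Named list genes were up to 2 called genes of largest change per direction and list in each withdrawal contrast, and up to 1 in each other contrast. One gene of the lists is not reported here and was left out of their counts. Members, lists and rules were chosen with earlier results of these data known. Probes carry their deposited mm9 positions, and exons were not assigned.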

Additional observations from a re-analysis of the deposited data

Results flagged for a closer look

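For 6 listed genes the difference between the withdrawal effects passed by limma in the main fit, with n = 2 arrays per group. Of all genes, 4.32% passed as higher and 0.952% as lower. By list, 3 of 11 STAT5-activated genes passed, 2 of 8 PIM substrates, 1 of 9 factors acting on Il7r and 1 of 18 inhibitors. Socs1 is in 2 of these lists. Of 5 shared-chain receptors and 6 other JAK and STAT genes 0 passed. The sponge minus scrambled withdrawal effect was -0.99 ± 0.18 (SE) for Socs1 (adjusted p = 0.043), 1.35 ± 0.13 for Bcl2 (0.0306), 1.1 ± 0.12 for Myc (0.0306), 1.61 ± 0.14 for Cdkn1a at its brightest probe (0.0306), 0.8 ± 0.13 for Cdc25a (0.0341) and 0.83 ± 0.12 for Gfi1b (0.0316). With the replicate number as a block the adjusted p was 0.0556, 0.0508, 0.0508, 0.0508, 0.0513 and 0.053 in the same order, and 0 genes passed over all genes. With the mean of its kept probes Cdkn1a gave 0.85 (adjusted p = 0.0962), and with normexp background correction Myc gave 0.48 (0.0471). Of the 16 alternatives, 7 or 8 kept each call, and none turned a direction. Each of these genes moved less after withdrawal in sponge than in scrambled cells: Gfi1b fell by 0.94 in scrambled cells and gave -0.11 in sponge cells, and Cdkn1a fell by 1.83 and gave -0.22. The causes were not tested.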

How the results depend on the processing

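All 10 genes were tested under 8 alternative settings and with each of the 8 arrays left out. Of the 800 values this gives over 5 comparisons, 732 kept their direction and their side of the threshold, 29 lost a call, 14 gained one and 25 changed sign. The values of Il2ra after withdrawal and without IL-7, and of Pim2 after withdrawal in scrambled cells, kept their calls throughout.

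Over all genes, leaving out 1 array gave 6770 to 10356 calls for withdrawal in scrambled cells (main 10251), 1738 to 5141 in sponge cells (main 4939), 38 to 1360 for sponge minus scrambled with IL-7 (main 241; 1360 without scrambled replicate 2), 3416 to 7447 without IL-7 (main 6843) and 0 to 1616 for the difference between the withdrawal effects (main 1124). Members called were 2 to 4 (main 4) after withdrawal in scrambled cells, 0 to 1 (main 1) for the sponge with IL-7 and 1 to 3 (main 3) without IL-7. With the replicate block, pairing the same-numbered arrays, 151 genes passed for the sponge with IL-7 and 0 for the difference, 2 members passed after withdrawal in sponge cells, and the changed calls stand beside the results; it changed no other call of the 10 genes. Without the filter on dim probes there were 2644 calls for withdrawal in sponge cells, 82 for sponge minus scrambled with IL-7 with 0 members, 0 for the difference, and 2 members for withdrawal in scrambled cells; this setting adjusts over more genes. Keeping only probes well above background on all 8 arrays gave 432 for the sponge with IL-7 and 1716 for the difference, and normexp background correction 388 for the sponge with IL-7. For withdrawal in sponge cells 2 members passed under normexp, quantile normalization and the deposited value table, and without IL-7 5 passed under the last 2; the cause was not tested.

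Values that changed sign were small. After withdrawal in sponge cells Pim2 was -0.01 under normexp, Jak3 0.06 under quantile normalization and 0.05 in the value table, and sponge minus scrambled Il7r without IL-7 was -0.02 in the value table. With 1 array left out, withdrawal in scrambled cells gave -0.02 to 0.13 for Il7r, -0.04 to 0.13 for Stat5a and -0.01 to 0.09 for Stat5b. In sponge cells it gave -0.12 to 0.08 for Jak3, -0.04 to 0.18 for Pim1, -0.11 to 0.21 for Pim2 and -0.12 to 0.04 for Pim3. The sponge with IL-7 gave -0.30 to 0.02 for Il2rg, -0.08 to 0.06 for Jak1, 0.00 to 0.16 for Stat5a and -0.10 to 0.11 for Pim2. The difference between the effects gave -0.09 to 0.06 for Il7r and -0.21 to 0.01 for Pim1.

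Of the called list genes, 20 of 32 kept their call in every alternative for withdrawal in scrambled cells, 4 of 16 in sponge cells, 0 of 1 in sponge minus scrambled with IL-7, 12 of 29 without IL-7 and 0 of 6 for the difference, and none changed sign. All 12 probes were well above background on all 8 arrays.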
